A study of Mus musculus with 4 samples.

Results

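The genes described here are 6 genes that mark the 2-cell-like state of mouse embryonic stem cells (mESCs), given by symbol: Zscan4c, Zscan4d, Zscan4f, Zfp352, Tcstv1 and Tcstv3. They were looked up in a table of RNA-seq read counts for 37310 genes, and 4 of the 6 had an identifier there. Tcstv1 and Tcstv3 had none under these symbols in the annotation used for counting (GENCODE vM1) and were not analysed here. RNA was sequenced from mESCs of the HATX line, in which doxycycline can switch on a transgene of Xist that sits on the X, grown in serum with LIF on gelatin. There were 2 wild-type (WT) libraries and 2 libraries labelled Spen KO, from clone 2 of a knockout made in the same line. Both groups therefore carry the transgene, both have the mixed genomic background given as the strain, and no treatment is named for either. The study calls the cells haploid, and its accounts of the Spen deletion differ, from the whole gene to most of it. Each group is 1 line or clone, and nothing states that its libraries came from separate cultures, so p-values measure only the spread between these libraries.

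A small and changing fraction of mESCs passes through a state that resembles the 2-cell embryo, the stage at which the mouse embryo starts to transcribe its own genome. Cells in this state transcribe Zscan4, a cluster of near-identical genes for zinc finger proteins with a SCAN domain that are linked to telomere lengthening by recombination. They also transcribe Zfp352, which encodes another zinc finger protein of the early embryo, the Tcstv genes, and retroviral repeats of the MERVL family. The transcription factor Dux, aided upstream by Dppa2 and Dppa4, switches the program on, while chromatin repressors such as Kdm1a, Trim28 and Setdb1 hold it off. The comparison asks whether RNA of these genes differed between mESCs labelled as lacking Spen, itself a repressor that binds RNA, and WT mESCs. The libraries are bulk RNA, so a change in the number of cells in the state and a change in RNA per cell cannot be told apart.

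The Zscan4 members lie in 1 cluster on chromosome 7 (build mm9). Zscan4c (ENSMUSG00000054272.4) spans chr7:11591071-11595896 on the plus strand, Zscan4d (ENSMUSG00000090714.1) chr7:11746992-11751497 on the minus strand and Zscan4f (ENSMUSG00000070828.3) chr7:11983264-11988090 on the plus strand. Zfp352 (ENSMUSG00000070902.4) lies apart from them at chr4:89885511-89892393 on the plus strand. All 4 are annotated as protein coding. The coding sequences of Zscan4c, Zscan4d and Zscan4f are each 1518 bases long. Zscan4c and Zscan4f differ at 6 of these positions (99.6% identity), and Zscan4d differs from each of them at 35 (97.7% identity).

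The stretch of 75 bases, the length of 1 read, in which the 3 coding sequences differ most is shown because a read taken there can tell the copies apart. It covers coding bases 1046 to 1120 within 1 coding exon, at chr7:11594870-11594944 (plus) in Zscan4c, chr7:11747671-11747745 (minus) in Zscan4d and chr7:11987063-11987137 (plus) in Zscan4f. Capitals mark the 8 positions at which at least 1 of the 3 differs.
Zscan4c: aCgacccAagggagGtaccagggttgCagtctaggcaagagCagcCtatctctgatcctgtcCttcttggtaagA
Zscan4d: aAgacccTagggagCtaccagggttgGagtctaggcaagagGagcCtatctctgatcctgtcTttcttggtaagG
Zscan4f: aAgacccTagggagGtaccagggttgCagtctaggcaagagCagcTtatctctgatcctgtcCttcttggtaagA
The next stretch, coding bases 130 to 204 of Zscan4c at chr7:11592034-11592108 (plus), is shown for the opposite reason. It is the first of 79 stretches of 75 coding bases that are identical in all 6 annotated Zscan4 copies, so a read from it fits every copy equally well.
All 6 copies: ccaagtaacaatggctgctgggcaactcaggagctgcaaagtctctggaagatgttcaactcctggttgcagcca
Of the 1296 such stretches that could be aligned within 1 exon of the 3 members, 296 (22.8%) were identical in all 3.

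Over whole transcripts the copies also differed in how much sequence was their own. Of the 2005 windows of 75 exonic bases in Zscan4c, 468 (23.3%) occur at 1 place in the genome. In Zscan4d 1033 of 1696 windows (60.9%) do, and in Zscan4f 77 of 2060 (3.74%). Most of the sequence of Zscan4f is shared with other copies, 62.8% of its windows being found in Zscan4c and 84.0% in Zscan4-ps2. Zfp352 is close to unique, with 2113 of 2179 windows (97.0%) at 1 place. How the counting treated reads with several matches was not stated, so single Zscan4 genes are reported as uncertain and their sum is given beside them.

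**Figure D1:**
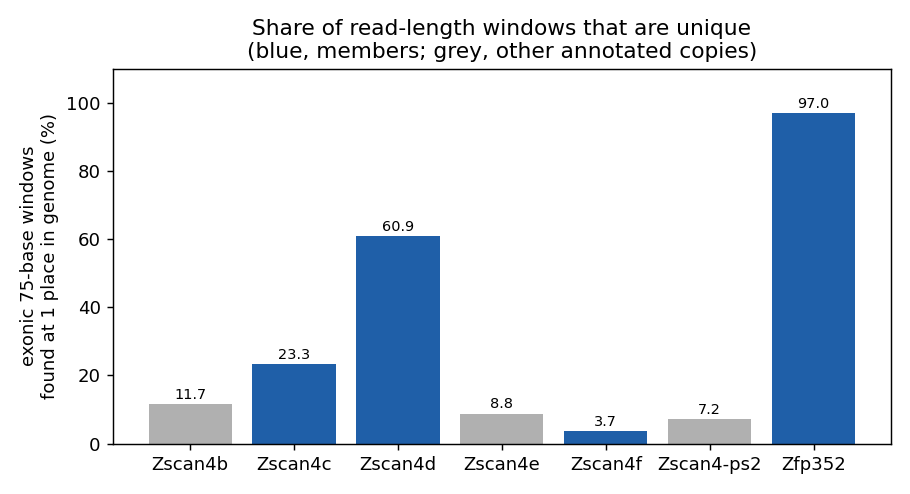
Share of 75-base exonic windows found at 1 place in the genome (percent, vertical axis) for the members (blue) and the other annotated Zscan4 copies (grey), 1 bar a gene. Zfp352 reaches 97.0% and Zscan4d 60.9%, whereas Zscan4c stands at 23.3% and Zscan4f at 3.74%.

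Libraries held 36667685 to 61908422 counts, the 2 WT libraries being the shallower. Spen, the targeted gene, had more counts in the libraries labelled KO. Its normalized counts (counts divided by the size factor of the library) were 3716 and 3047 in WT and 7797 and 6242 in the libraries labelled KO (log2 difference 1.05 ± 0.21 SE, DESeq2 adjusted p = 7.70e-06). The study itself describes raised Spen mRNA where the protein is lost. These counts cover the gene as a whole, and neither the deleted part nor the protein was measured here, so they do not check the labels. The groups are called by their labels, WT and KO-labelled, and directions rest on these. The 6 mESC markers, among them Pou5f1 and Nanog, summed to between 129573 and 138663 normalized counts in the 4 libraries. Summed markers of other cell types differed between the groups, and their part in the results was not tested. Fibroblast markers (6 genes) summed to 170 and 192 in WT and 421 and 485 in KO-labelled libraries, primitive endoderm markers (6 genes) to 530 and 566 against 285 and 246, and trophoblast markers (5 genes) to 1006 and 967 against 397 and 385. By the calling rule given below, 1 of 4 tested fibroblast genes was higher (Thy1), while 1 of 5 primitive endoderm genes (Sox7) and 1 of 4 trophoblast genes (Gata3) were lower, where 1.36% and 3.15% of all genes tested were called higher and lower. At an adjusted p under 0.05, 3 of 4 trophoblast genes (75%) and 2 of 5 primitive endoderm genes (40%) were lower, where 15.8% of all genes tested were. edgeR called 1 fibroblast, 2 primitive endoderm and 1 trophoblast gene, where it called 4.95% of the 17261 genes it tested. The fibroblast sum was mostly Thy1 (118 and 137 against 356 and 414), while Col1a2 (13.3 and 13.1 against 5.22 and 6.26) and Col3a1 (10.6 and 10.9 against 8.71 and 9.39) were lower in KO-labelled libraries without passing the test. Col1a1 had 27.8 and 21.8 normalized counts in WT against 49.6 and 47.7 (log2 difference 0.98 ± 0.56 SE), and 2 of the 4 fibroblast genes passed an adjusted p under 0.05 in edgeR and 1 in DESeq2, where 40.9% and 32.3% of all genes tested did. Postn was at 0 in 3 libraries and Elf5 was at 0 in both KO-labelled libraries.

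RNA of all 4 members was detected in every library, at low levels, and no member differed between WT and KO-labelled mESCs beyond the spread between replicates. The groups overlapped for each of the 4. By the study's own thresholds, a fold change of at least 2 and a DESeq2 adjusted p under 0.001, 0 of 4 members were called, where 4.51% of the 17710 genes tested were. At an adjusted p under 0.05 the count was again 0 of 4, where 32.3% of all genes tested passed. At an unadjusted p under 0.05 the count was 0 of 4 in DESeq2 and in edgeR, where 39.6% and 48.9% of all genes tested passed, and edgeR also called 0 of 4, where it called 4.95% of all genes. For 70.2% of all genes tested, both KO-labelled libraries lay on the same side of both WT libraries, which was so for 0 of the 4 members.

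Zscan4d, the copy with the largest share of windows of its own, was given the most reads of the 3. Its normalized counts were 148 and 96.9 in WT libraries 1 and 2 and 105 and 91.6 in KO-labelled libraries 1 and 2. The first WT library stood above the other 3, which lay close together, and the log2 difference (KO-labelled minus WT, as throughout) was -0.31 ± 0.34 SE (95% interval -0.99 to 0.36, DESeq2 adjusted p = 0.552). Zscan4c, the copy whose protein has been studied most, had 101 and 46.8 normalized counts in WT and 99.3 and 59.5 in KO-labelled libraries. Library 1 of each group was high and library 2 low, so that the gap lay within the groups. The log2 difference was 0.11 ± 0.46 SE (95% interval -0.79 to 1.01, DESeq2 adjusted p = 0.896). Its sign turned without WT library 2 (-0.34) or KO-labelled library 1 (-0.30), and that of Zscan4d turned without WT library 1 (0.026).

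Zscan4f, the copy with the least sequence of its own, had 65.0 and 49.0 normalized counts in WT and 49.6 and 23.5 in KO-labelled libraries. The second KO-labelled library was the low one and the first lay between the WT values, with a log2 difference of -0.64 ± 0.54 SE (95% interval -1.69 to 0.41, DESeq2 adjusted p = 0.409). It was -1.27 without KO-labelled library 1 and -0.19 without KO-labelled library 2. Zfp352 was the lowest member, with 15.9 and 22.9 normalized counts in WT and 30.5 and 12.5 in KO-labelled libraries. Its highest and lowest libraries were both KO-labelled. Raw counts behind these values were 12, 21, 35 and 16, and the log2 difference of 0.14 ± 0.78 SE had a 95% interval from -1.39 to 1.67 (DESeq2 adjusted p = 0.926). For Zfp352 a 2-fold difference in either direction thus lay inside the interval. Its sign turned without WT library 1 (-0.09) or KO-labelled library 1 (-0.63).

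**Figure D2:**
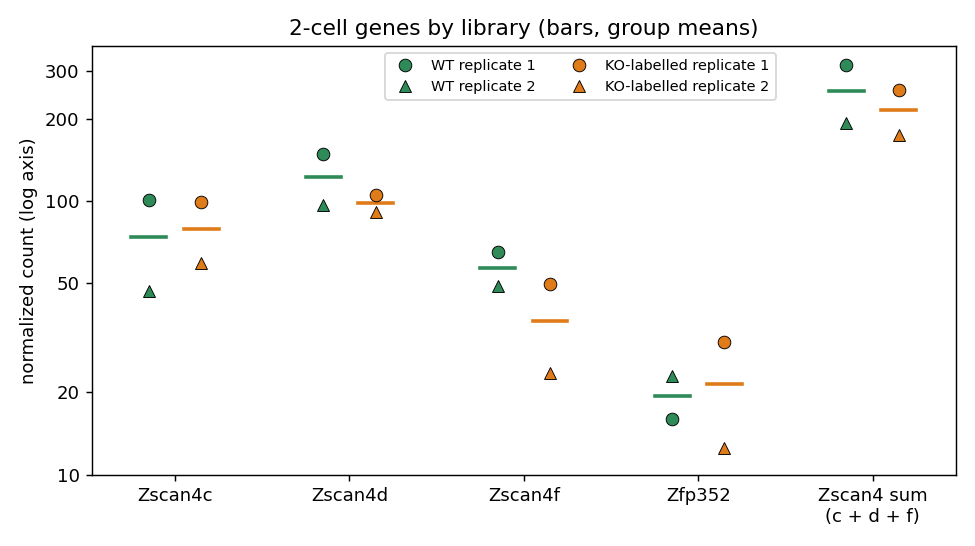
Normalized counts (log axis) of Zscan4c, Zscan4d, Zscan4f, Zfp352 and the Zscan4 sum, 1 point a library (circles, replicate 1; triangles, replicate 2; green, WT; orange, KO-labelled), with a bar at each group mean. WT and KO-labelled points overlap for every gene, and for Zscan4c the 2 libraries of a group lie further apart than the group means.

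Compared per length, in normalized counts per kilobase of exon averaged over the 4 libraries, the order was Zscan4d (55.5), Zscan4c (33.3), Zscan4f (19.2) and Zfp352 (8.79), against a median of 154.2 over all genes tested. On this scale Zscan4d ranged from 46.0 to 74.5 over the libraries and Zscan4c from 20.4 to 43.8, so these neighbours did not overlap. Zscan4f ranged from 9.66 to 26.7 and overlapped both Zscan4c and Zfp352 (5.38 to 13.1), so the ranges alone do not separate these neighbours. Within each of the 4 libraries the order of the 4 members was the same. The order of the 3 Zscan4 copies is that of reads as assigned and is also the order of their shares of windows at 1 place, so their true levels may be ordered otherwise. Zscan4d was above 34.6% of the genes tested on this scale and Zfp352 above 10.7%. Within the Zscan4 sum Zscan4d took 47.3% and 50.3% of counts in WT and 41.4% and 52.5% in KO-labelled libraries. Zscan4c took 24.3% to 39.0% and Zscan4f 13.5% to 25.4% over the 4 libraries. The SE of the log2 difference of each member was larger than that of 66.5% (Zscan4d) to 86.6% (Zfp352) of the genes tested.

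If each read was given to 1 copy, summing removes the question of which of the 3 that was. If reads with several matches were left out or counted at each match, the sum misses them or holds them more than once. Reads from shared sequence may also fall elsewhere, as 58.2% of the windows of Zscan4c, 34.1% of Zscan4d and 64.7% of Zscan4f also occur on chromosome 7 outside the 6 annotated copies. Counts of Zscan4c, Zscan4d and Zscan4f together were 237 and 177 in WT and 292 and 223 in KO-labelled libraries, or 6.46 and 4.04 against 5.34 and 3.60 CPM (counts scaled to equal library totals). In normalized counts the sum was 253 ± 85.9 in WT and 214 ± 56.4 in KO-labelled libraries (SD, n = 2). WT library 1 was highest and KO-labelled library 2 lowest, and the other pair lay between them in the opposite order, KO-labelled above WT. The log2 difference was -0.24 ± 0.28 SE (DESeq2 adjusted p = 0.584), a fold of 0.847 with a 95% interval from 0.578 to 1.24. A 2-fold difference of the summed Zscan4 RNA in either direction lay outside this interval. With 1 library fewer a 2-fold drop lay inside it, as the lower limit on the log2 scale was -1.25 without WT library 2 and -1.31 without KO-labelled library 1. Adding Zfp352, so that all 4 members were summed, gave 330 and 216 normalized counts in WT and 285 and 187 in KO-labelled libraries. The log2 difference of that sum was -0.21 ± 0.27 SE (DESeq2 adjusted p = 0.629). Without WT library 1 or KO-labelled library 2 both sums turned positive, the Zscan4 sum to 0.16 and 0.01 and the sum of all 4 members to 0.13 and 0.07.

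For the Zscan4 sum, replicates of 1 group differed by more than counting error, provided that no read was counted for more than 1 copy. The normalized Zscan4 sum was 1.63 times as high in library 1 as in library 2 of WT (exact binomial 95% interval 1.34 to 1.99) and 1.46 times as high in library 1 as in library 2 of the KO-labelled group (1.22 to 1.74). Both ratios exceeded the ratio between the group means. For Zscan4c the ratios were 2.15 (1.46 to 3.20) in WT and 1.67 (1.24 to 2.26) in KO-labelled libraries. For Zscan4d in KO-labelled libraries (1.15, 0.885 to 1.497) and Zscan4f in WT (1.33, 0.866 to 2.03) the interval included 1. Zfp352 did not follow the same order, with a ratio of 0.696 (0.312 to 1.48) in WT and of 2.43 (1.31 to 4.71) in KO-labelled libraries. These binomial intervals cover counting error only. Low counts were more often even than odd in all 4 libraries, and whether both mates of a pair were counted was not stated. With every count halved, the interval of the Zscan4 sum still lay above 1 in WT (1.23 to 2.17) and in KO-labelled libraries (1.13 to 1.87). Halving allows for 2 mates but not for reads counted in several copies, a treatment that was not stated.

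**Figure D3:**
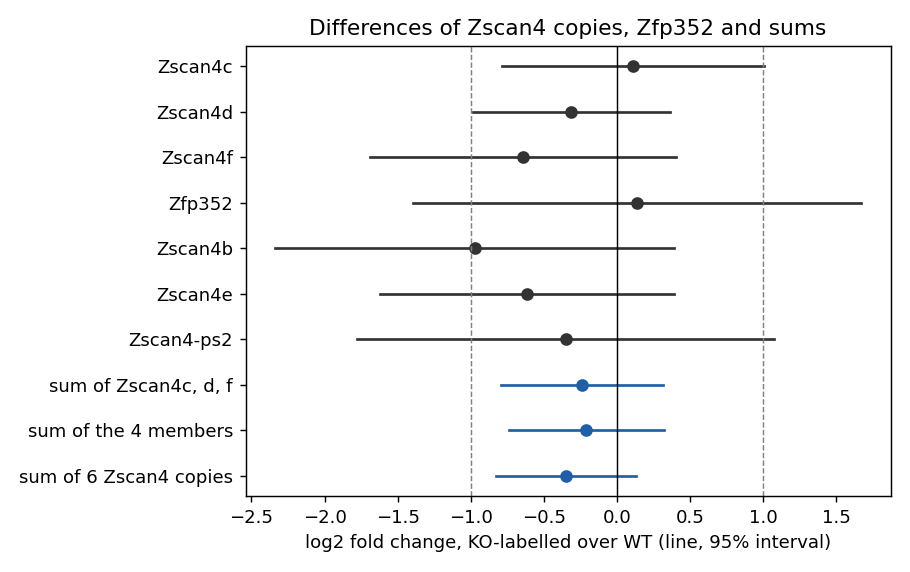
Log2 difference (KO-labelled minus WT) with 95% intervals from DESeq2 for the members, their sums and the other annotated Zscan4 copies, with a line at 0 and dashed lines at a 2-fold difference. Every interval crosses 0, and that of the Zscan4 sum runs from -0.79 to 0.31.

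Of 6 other Zscan4 symbols listed, 3 had an identifier, and these were Zscan4b, Zscan4e and Zscan4-ps2. All 3 had negative log2 differences and none was called (0 of 3 by DESeq2, where 4.51% of all genes tested were, and 0 of 3 by edgeR). At an unadjusted p under 0.05 the counts were 0 of 3 and 1 of 3, where 39.6% and 48.9% of all genes passed. Zscan4b, whose locus lies 100672 bases before Zscan4c, had 35.8 and 26.1 normalized counts in WT and 17.4 and 14.1 in KO-labelled libraries. Zscan4e had 63.6 and 43.6 against 32.2 and 37.6. For both, 2 of the 3 copies, the groups did not overlap, as for 70.2% of all genes tested, and the adjusted p from DESeq2 was 0.317 for Zscan4b (log2 difference -0.97 ± 0.70 SE) and 0.412 for Zscan4e (-0.61 ± 0.51 SE). Zscan4b and Zscan4e share 99.7% of their coding sequence, and at most 11.7% of the windows of either occur at 1 place, so they are hardly separate measurements. Zscan4-ps2, which lies 111569 bases after Zscan4f, had 25.2 and 26.1 normalized counts in WT and 27.9 and 12.5 in KO-labelled libraries. The sum of all 6 annotated copies was 439 and 289 in WT and 332 and 239 in KO-labelled libraries, with a log2 difference of -0.35 ± 0.24 SE (95% interval -0.82 to 0.13, DESeq2 adjusted p = 0.300).

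The genes around Zfp352 did differ between the groups, while Zfp352 did not pass the test. The nearest gene before it with a mean of at least 10 normalized counts was Cdkn2b, an inhibitor of cyclin-dependent kinases, 928570 bases away. Cdkn2b had 87.5 and 76.2 normalized counts in WT and 19.2 and 14.9 in KO-labelled libraries, and was called lower (log2 difference -2.27 ± 0.51 SE, DESeq2 adjusted p = 5.82e-05). The nearest such gene after it, 1025061 bases away, was Elavl2, which encodes an RNA-binding protein. It had 1444 and 1575 normalized counts in WT and 657 and 593 in KO-labelled libraries, and was also called lower (-1.27 ± 0.12 SE, adjusted p = 1.31e-22). Among genes with a mean of at least 50 normalized counts, those of chromosome 4 had a median log2 difference of -0.21 (894 genes). Those of chromosome 7, where Zscan4 lies, had a median of 0.09 (1079 genes). The median over all genes tested, without that minimum, was 0.0049.

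Other genes of the 2-cell program, from a list of 62 symbols, were lower more often than higher in KO-labelled libraries. Of these symbols 44 had an identifier, and 27 genes were tested, with a median log2 difference of -0.46 and 21 negative against 6 positive values. Called lower were 2 of 27 (7.41%), where 3.15% of all genes tested were called lower, and called higher were 0 of 27, where 1.36% were. edgeR called 2 of the 25 it tested, and 10 of 25 passed an adjusted p under 0.05, where 4.95% and 40.9% of all genes did. An unadjusted p under 0.05 was reached by 10 of 27 in DESeq2 and 13 of 25 in edgeR, where 39.6% and 48.9% of all genes passed. The groups did not overlap for 15 of 27, as for 70.2% of all genes tested. At an adjusted p under 0.05, 8 of 27 (29.6%) fell and 1 (3.70%) rose, where 15.8% of all genes tested fell and 16.4% rose. Of these, Gm4858 and Pramef6, which fell, and Tdpoz4, which rose, had means of 8.07, 8.615 and 7.768 normalized counts. The smallest mean tested was 7.255, so these genes reached the test only through the group in which they are high. Of the 18 identifiers that were not tested, 14 had few counts (a mean of at most 7.12 normalized counts) and 4 had none. Of the 27 tested genes, 17 had at least 80% of their windows at 1 place, and 6 of these 17 passed an adjusted p under 0.05, where 32.3% of all genes tested did. The summed trophoblast and primitive endoderm markers given above were lower in the same libraries, and their part in this difference was not tested.

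The 2 genes called lower were Pramef12 and Dub1a. Pramef12, a member of the PRAME family with leucine-rich repeats, had 931 and 915 normalized counts in WT and 187 and 182 in KO-labelled libraries (log2 difference -2.32 ± 0.16 SE, DESeq2 adjusted p = 4.99e-45). Dub1a, a deubiquitinating enzyme gene on the same chromosome as Zscan4, had 106 and 78.4 against 26.1 and 25.0 (-1.85 ± 0.46 SE, adjusted p = 0.000366). In both genes the groups lay further apart than the replicates did.

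Among genes past an adjusted p under 0.05 but not called, Pramef8, of the same PRAME family, fell from 1969 and 2000 normalized counts to 1406 and 1477 (log2 difference -0.46 ± 0.10 SE). Gm5662 fell from 172 and 158 to 96.7 and 82.2 (-0.89 ± 0.30 SE), though 41.7% of its windows occur at 1 place. Duxbl, a homeobox gene related to Dux, fell from 46.4 and 31.6 to 6.10 and 11.7 (-2.12 ± 0.73 SE), and only 11.0% of its windows occur at 1 place. Each of these kept both KO-labelled libraries below both WT libraries. Gm4858 had raw counts of 14 and 11 in WT and 2 and 0 in KO-labelled libraries, a ratio of WT to KO-labelled of 18.1 (exact binomial 95% interval 4.52 to 158). Pramef6 had 12 and 14 against 2 and 2, a ratio of 9.43 (3.27 to 37.2). Ddit4l, an inhibitor of mTOR signalling named here after its values were seen, was the last of the 8 and fell by 0.45 on the log2 scale. The 1 gene that rose was Tdpoz4, which encodes a protein with TRAF and POZ domains. It had raw counts of 0 and 0 in WT and 24 and 13 in KO-labelled libraries, at least 4.29-fold higher against a floor of 3 counts in each WT library (DESeq2 adjusted p = 0.00476).

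Of 8 listed activators of the state, 6 had an identifier and 4 were tested, with a median log2 difference of 0.00089. None was called (0 of 4 by DESeq2, where 4.51% of all genes tested were, and 0 of 4 by edgeR). At an unadjusted p under 0.05 the counts were 1 and 2 of 4, where 39.6% and 48.9% of all genes passed. At an adjusted p under 0.05, 1 of 4 rose in DESeq2, where 16.4% of all genes tested rose, and 2 of 4 passed in edgeR, where 40.9% of all genes did. Dux itself had raw counts of 2 and 8 in WT and 4 and 12 in KO-labelled libraries, too few to be tested. Dppa2 and Dppa4, its upstream activators, were abundant, and their log2 differences were 0.03 ± 0.07 SE and -0.03 ± 0.08 SE. Gata2, which can activate MERVL, had 156 and 209 normalized counts in WT and 145 and 100 in KO-labelled libraries (-0.58 ± 0.30 SE, DESeq2 adjusted p = 0.137). Tbx3, a T-box factor of mESCs that has been linked to Zscan4 induction, rose from 8245 and 8848 to 14478 and 14984 (0.79 ± 0.07 SE, adjusted p = 2.17e-26) and did not reach the 2-fold threshold.

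All 25 repressors of the state were tested, with a median log2 difference of 0.10, and 0 were called by DESeq2 or by edgeR, which called 4.51% and 4.95% of all genes. An unadjusted p under 0.05 was reached by 16 in DESeq2 and 17 in edgeR, where 39.6% and 48.9% of all genes tested did. At an adjusted p under 0.05, 11 of 25 (44.0%) rose and 3 (12%) fell, where 16.4% of all genes tested rose and 15.8% fell. Those that rose most clearly were Setdb1, a histone H3 lysine methyltransferase (log2 difference 0.53 ± 0.07 SE), L3mbtl2 (0.47 ± 0.08 SE), Pcgf6 (0.39 ± 0.08 SE) and Mga (0.28 ± 0.07 SE), all 3 of the same Polycomb complex, and the DNA methyltransferase Dnmt1 (0.33 ± 0.07 SE). Setdb1, for one, had 9833 and 9322 normalized counts in WT and 13503 and 14191 in KO-labelled libraries. Hdac2, a histone deacetylase, fell from 7401 and 7027 to 5162 and 5401 (-0.45 ± 0.08 SE). The H3K9 methyltransferase gene Ehmt2 (-0.36 ± 0.08 SE) and the demethylase gene Kdm1a (-0.25 ± 0.07 SE) fell as well. All of these differences were under 2-fold.

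Zscan4 is known for its tie to telomeres and meiosis-like recombination, and 10 genes of these processes were listed. Of these 9 were tested, all 9 with a positive log2 difference and a median of 0.15. None was called (0 of 9 by DESeq2 and by edgeR, which called 4.51% and 4.95% of all genes, with 5 and 4 at an unadjusted p under 0.05), and 4 of 9 (44.4%) rose at an adjusted p under 0.05, where 16.4% of all genes tested rose. The unadjusted p was under 0.05 for 39.6% of all genes in DESeq2 and 48.9% in edgeR. Apart from Smc1b (SE 0.21), the tested genes had SEs of at most 0.15, where the median over all genes tested was 0.175. Small differences thus passed more easily in this list than in a typical gene. Rtel1, a helicase of telomeres, rose from 5303 and 4856 normalized counts to 7201 and 7238 (0.51 ± 0.08 SE). Rad50, which binds DNA breaks, rose from 2235 and 2603 to 3733 and 3266 (0.53 ± 0.10 SE). The helicase gene Blm (0.25 ± 0.08 SE) and the meiotic recombinase gene Dmc1 (0.35 ± 0.11 SE) also rose, while Tert, the telomerase subunit, had a log2 difference of 0.10 ± 0.15 SE.

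**Figure D4:**
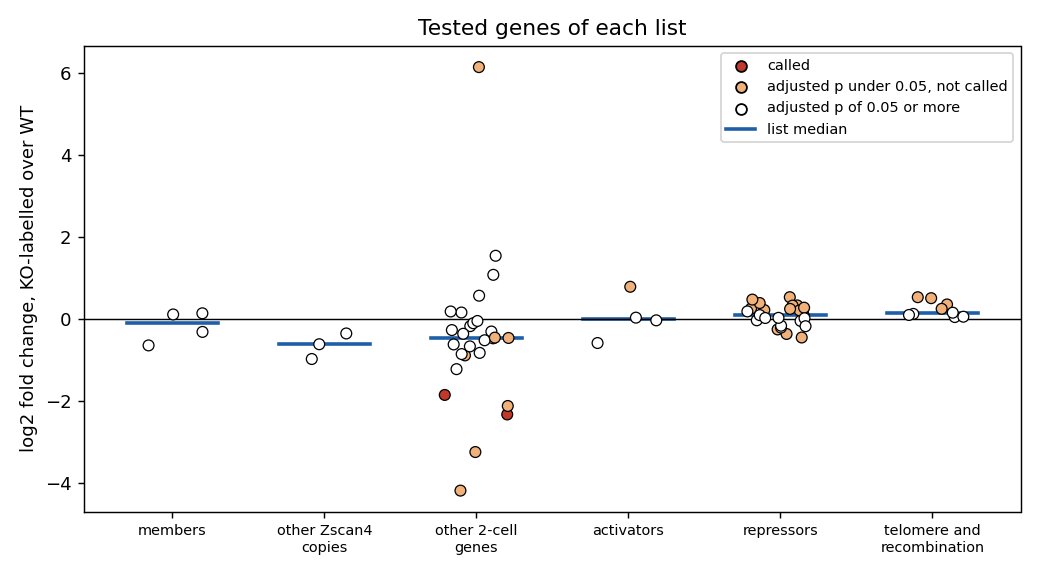
Log2 difference (KO-labelled minus WT) of every tested gene of each list, 1 point a gene, filled by its test result, with the median of the list as a bar. The members lie around 0 with a median of -0.10, the other 2-cell genes have a median of -0.46, and the value of Tdpoz4 (no count in WT) depends on the fit and is no measured fold.

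Some other genes followed the libraries much as the summed members did. Likeness was the root mean square difference of centred log2 normalized counts over the 4 libraries, among genes with a mean of at least 50 normalized counts. The closest were Gm16211 (0.0331), Slc7a4 (0.0542), Rab39 (0.0969), Trim68 (0.0999) and 2610020C07Rik (0.103). Gm16211, for example, had 125 and 80.6 normalized counts in WT and 113 and 71.2 in KO-labelled libraries, again with library 1 high and library 2 low in each group. With 4 libraries such likeness is a description only.

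**Figure D5:**
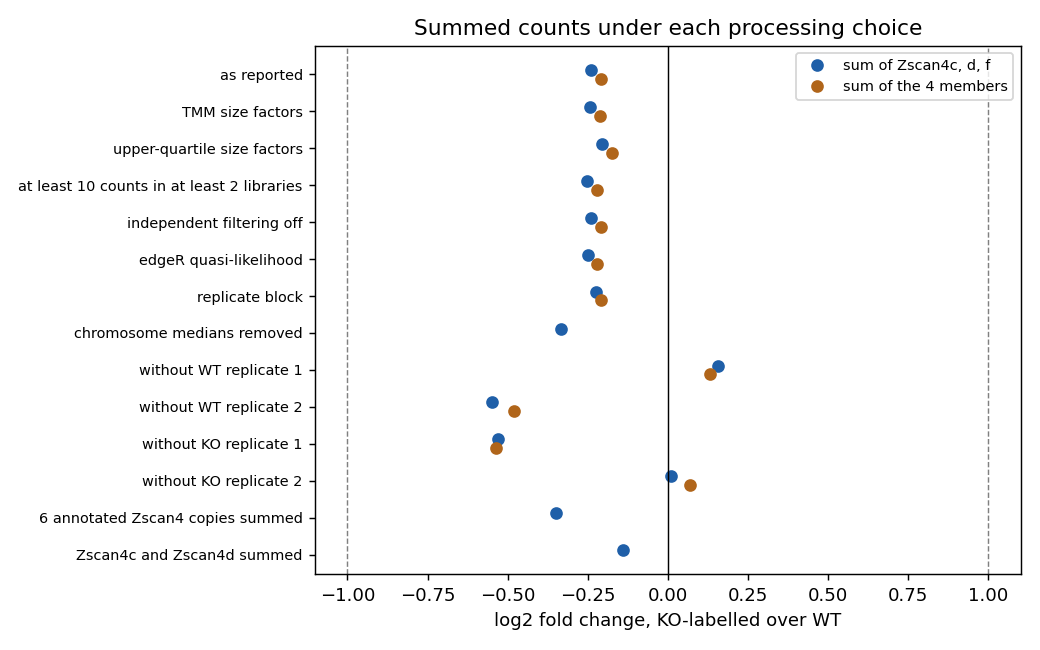
Log2 difference (KO-labelled minus WT) of the Zscan4 sum and of the sum of the 4 members under each way of processing, 1 row a setting, with a line at 0 and dashed lines at a 2-fold difference. Both sums change sign only where 1 library is left out, the Zscan4 sum running from -0.55 to 0.16.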

How the data were processed

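RNA was measured in 2 WT and 2 KO-labelled mESC libraries. The study's methods describe stranded libraries with ribosomal RNA depleted rather than poly-A RNA selected, sequenced as paired 75-base reads and aligned to mm9 by STAR. The authors counted reads in GENCODE vM1 genes by featureCounts and deposited these raw counts without normalization. Tool versions, the strand setting and how reads with several matches were treated are not given in the sources used here, and labels and methods name different instruments (NextSeq and HiSeq). Overlapping and antisense genes may thus share reads.

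Groups came from the labels, every column was matched to a sample by name, and positions came from GENCODE vM1 on NCBIM37 (mm9), 1-based. DESeq2 1.42.0 (R 4.3.3) was fitted to the counts (Wald test, group alone, default size factors and filtering, Benjamini-Hochberg over 17710 genes). Calls needed a 2-fold difference or more and an adjusted p under 0.001. Sums of counts replaced the rows summed. Coding sequences were aligned with MAFFT 7.526, and windows of 75 bases were matched to both strands of the genome. edgeR 4.0.16, other size factors, filters, thresholds, a replicate block, removal of chromosome medians and leaving out each library were alternatives.

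The members, lists and alternatives were chosen with earlier results of these data known. Named were the members, genes called in a list and up to 5 more per list and direction with the smallest adjusted p under 0.05, the nearest gene with a mean of at least 10 normalized counts on each side of a locus, and the 5 genes most like the summed members. Same-numbered libraries did not deviate together (correlation -0.0177 over 13306 genes). Libraries held 36667685 to 61908422 counts. Exact binomial intervals of ratios cover counting error only, while intervals of log2 differences include the spread between libraries.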

Additional observations from a re-analysis of the deposited data

How the results depend on the processing

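None of the members or sums was called under any of the 80 combinations of result and setting run, and the lowest adjusted p among them was 0.184 (Zscan4f with edgeR). In 4 of them, Zfp352 with 1 library left out, DESeq2 gave no adjusted p, so no call could be made. The sign of Zscan4f was negative under all 13 settings. Those that changed only thresholds or switched off the default filtering of DESeq2 repeat the reported fit, so no sign could turn there. Other signs turned only where 1 library was left out, the lone library of a group then being assumed to vary like the other group. Over these 4 fits the log2 difference ran from -0.34 to 0.76 for Zscan4c (-0.34 without WT library 2, -0.30 without KO-labelled library 1), from -0.59 to 0.03 for Zscan4d (0.026 without WT library 1) and from -0.63 to 0.65 for Zfp352 (-0.09 without WT library 1, -0.63 without KO-labelled library 1). It ran from -0.55 to 0.16 for the Zscan4 sum (0.16 without WT library 1, 0.01 without KO-labelled library 2) and from -0.54 to 0.13 for the sum of the 4 members (0.13 without WT library 1, 0.07 without KO-labelled library 2). Zscan4f ran from -1.27 to -0.19.

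Over all genes, 241 were called higher and 558 lower. With an adjusted p under 0.05 and the 2-fold minimum these were 371 and 852, and with no fold minimum at an adjusted p under 0.001 they were 1499 and 1571. Leaving out 1 library gave 137 to 185 genes called higher (137 without KO-labelled library 1 and 158 without KO-labelled library 2) and 332 to 404 called lower (332 without WT library 2, and 363 without WT library 1 or without KO-labelled library 1). edgeR called 247 and 608. With the replicate block the calls were 192 and 457, the Zscan4 sum had a log2 difference of -0.23 and no call on a member changed. The replicate numbers mark nothing that the labels state as shared, and same-numbered libraries did not deviate together. With chromosome medians removed, the Zscan4 sum was at -0.33 and Zfp352 at 0.35. The sum of the 4 members has no value there, as they lie on 2 chromosomes, and a Tcstv sum was not run. Sums of all 6 annotated copies, of Zscan4c with Zscan4d (-0.14) and of the 6 copies with Zfp352 (-0.32) were chosen after seeing the data. The members had 12 to 121 counts a library. For the Zscan4 sum the spread within a group exceeded counting error, provided that no read was counted for several copies.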

Other observations

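Raw counts between 1 and 20 were even in 66.1% and 66.5% of genes in the WT libraries and in 64.7% and 64.0% in the KO-labelled libraries. In WT library 1, for example, 726 genes had 1 count, 1705 had 2, 412 had 3 and 880 had 4.

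Tcstv1 and Tcstv3 are placed on chromosome 13 by RefSeq's gene table for a later assembly, beyond Tmem267. A former symbol of Tmem267, Gm7120, is that of the last gene annotated on this chromosome in GENCODE vM1 (chr13:120281511-120284277).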
